A study of Rattus norvegicus with 10 samples.

Results

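The genes described here are 9 protein-coding genes of the mitochondrial genome whose products are subunits of the respiratory chain and of ATP synthase. They were taken from a fixed list of identifiers, chosen by name and not by their values, though earlier results of these data were known. All 9 of the 9 listed were present among the 16643 genes of the deposited table. Per the labels, the data come from the whole hippocampus of 10 adult male rats, 5 of a line bred for high locomotor response to novelty (bred High Responder, bHR) and 5 of a line bred for low response (bred Low Responder, bLR). All 10 rats were of breeding generation F43, lived in standard housing, were injected daily for 14 days with vehicle (saline and water) from postnatal day 78, and were 92 days old. All had spent 15 minutes on an elevated plus maze and had then been tested for social interaction, and the tissue was taken 1 hour after the maze, so no untested rats were compared. The rats are separate animals, so p-values measure the spread between animals of a single generation of each line.

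Mitochondria make ATP by passing electrons from NADH through membrane complexes that pump protons, which then flow back through ATP synthase. Most subunits of these complexes are encoded in the nucleus, but a small core is encoded in the mitochondrial DNA, which is present in many copies per cell. The genes considered here are copied together as long RNAs of 1 strand. These are cut into messengers, largely at transfer RNAs that lie between genes. The messengers then receive short poly(A) tails. Such messengers are abundant in brain, and because of these tails they are captured in libraries of polyadenylated RNA such as these.

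The deposited table gives Ensembl identifiers without names, so the symbols rest on the list that defined the genes, and markers of hippocampal cell types could not be looked up to check the tissue. The libraries held 29106105 to 48663164 reads assigned to genes. Levels are given in RPM, the deposited log2 value turned back into reads scaled to the authors' effective library size. That size was 0.933 times the total reads in bLR replicate 5 and 1.00 to 1.02 times in the other 9 libraries. Gene lengths were not used here, so levels of different genes are not set against each other per length. Nuclear copies of mitochondrial sequence can share reads with these genes, the ends of Mt-atp6 and Mt-nd4 overlap neighbouring genes, and whether the counting used strand is not stated in these sources.

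The share of the libraries taken by each gene was set beside its symbol. Rank by reads cannot tell which identifier is which mitochondrial gene, so the symbols still rest on the list. Mt-co1 (ENSRNOG00000034234) took more reads than any other gene in each library except bLR replicate 5, where it was in position 2, at 1.77 to 2.14% of all reads. Mt-atp6 (ENSRNOG00000031979) and Mt-cyb (ENSRNOG00000031766) stood in positions 2 to 5 and 2 to 6, and Mt-nd2 (ENSRNOG00000031033) in 4 to 7. Mt-nd1 (ENSRNOG00000030644) lay in positions 5 to 11, Mt-co2 (ENSRNOG00000030371) in 6 to 12, Mt-nd5 (ENSRNOG00000029971) in 8 to 14 and Mt-nd4 (ENSRNOG00000029707) in 12 to 19. Mt-nd3 (ENSRNOG00000033615) stood apart at positions 645 to 1103, with 5001 to 11206 reads per library against 91522 or more for each of the others. So 8 of the 9 genes were among the most abundant of the table, and Mt-nd3 was not.

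No gene of the group passed the test between the lines. The count was 0 of 9 in limma with Benjamini-Hochberg adjustment over all 16643 genes at 0.05, where 1.38% of all genes passed. At an unadjusted p under 0.05 there were 4 of the 9 genes (Mt-nd3, Mt-nd5, Mt-cyb and Mt-co2), all with a higher mean in bHR, against 15.1% of all genes in either direction and 7.04% higher in bHR. That count fell to 1 with bHR replicate 1, 3 or 4 or bLR replicate 2 left out, with quantile normalization, and with the social interaction score as covariate. It was 2 without bHR replicate 2, without bLR replicate 5 and with the replicate number as a block, and 3 or 4 in the other settings tried. The 9 genes varied together over the same rats (median r of 0.77 over pairs), so the 4 are not independent of each other. At an adjusted p under 0.10 Mt-nd3 passed, 1 of the 9, against 3.02% of all genes. The median log2 difference, bHR minus bLR, was 0.067 over the 9 genes and -0.0072 over all genes, and the median absolute difference was 0.067 and 0.073. The lines overlapped in each of the 9 genes. Over all genes 4.15% had lines that did not overlap, a share so low that 0 of 9 does not set these genes apart.

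**Figure D1:**
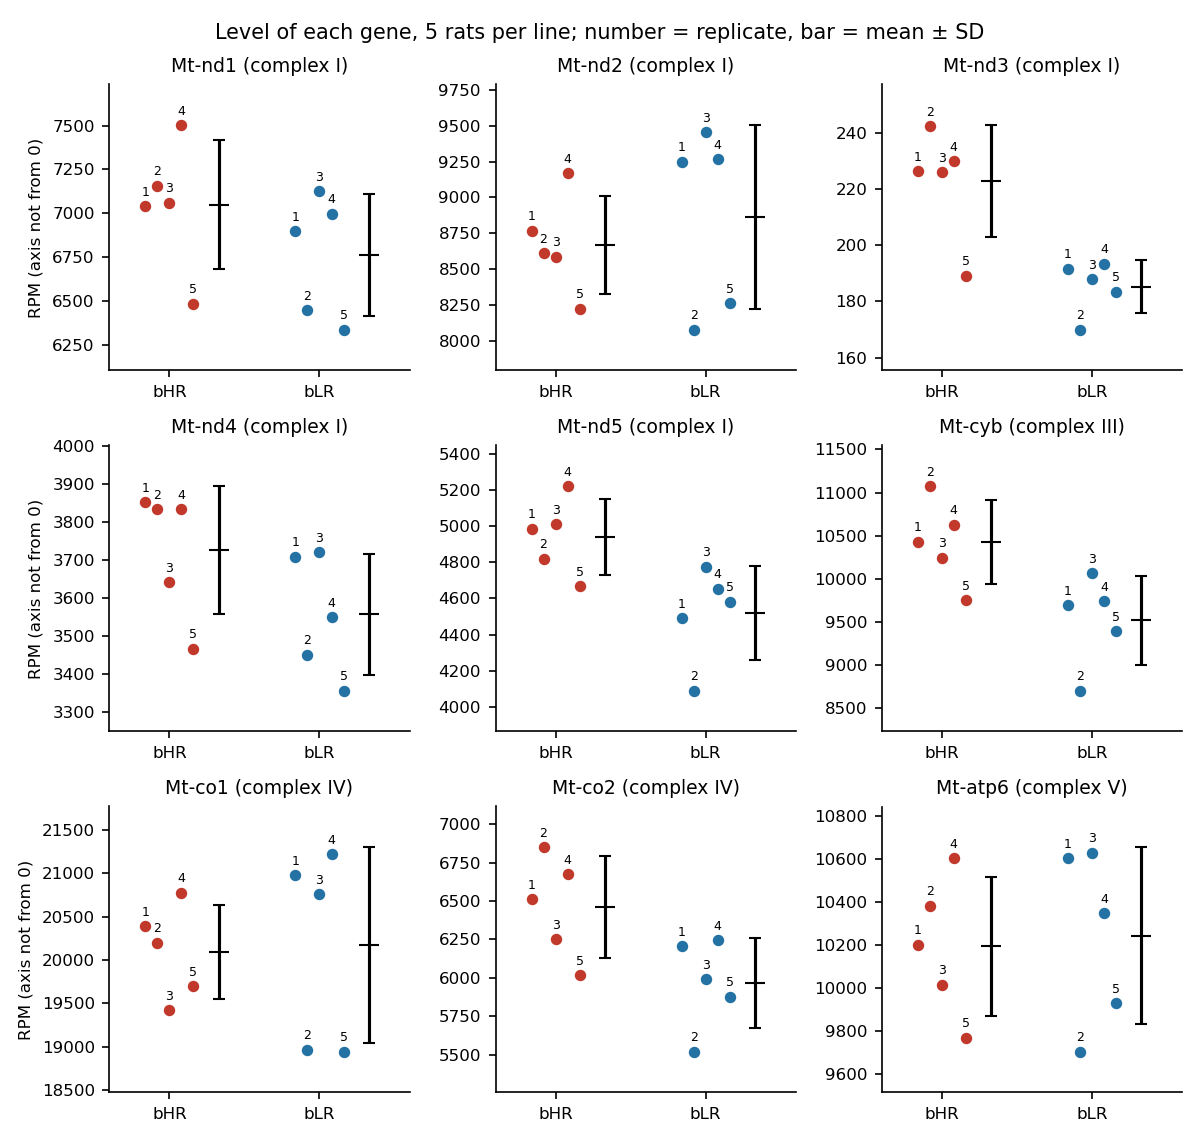
Level of each gene in RPM (linear axis, not from 0) in the 5 bHR and 5 bLR rats; points are rats, numbered by replicate, and bars are the mean ± SD. In Mt-nd3, 4 of the 5 bHR rats lie above all bLR rats and bHR replicate 5 lies among them; Mt-co1, Mt-nd2 and Mt-atp6 show wide overlap.

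Complex I, the entry point for electrons from NADH, holds the products of 5 of the genes in its membrane arm. Mt-nd3 encodes a small subunit near the junction of the membrane arm with the arm that binds NADH. Its level was 226, 242, 226, 229.9 and 189 RPM in bHR replicates 1 to 5 and 192, 170.0, 188, 193 and 183 RPM in bLR replicates 1 to 5. Of the bHR rats, 4 lay above all bLR rats, and bHR replicate 5 lay below bLR replicates 1 and 4. The means were 223 ± 19.97 RPM (SD, n = 5) in bHR and 185 ± 9.39 RPM in bLR, a log2 difference of 0.26 (SE 0.061, 95% interval 0.13 to 0.40). Its limma p was 0.0011 and 0.063 after adjustment over all genes. Without bHR replicate 5 the log2 difference was 0.32 with a limma adjusted p of 0.0077, and with library weights it was 0.28 with an adjusted p of 0.034. In the other 19 settings tried the gene did not pass, and the limma adjusted p ran up to 0.27 over all 21.

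Mt-nd5 encodes one of the large proton-pumping subunits at the far end of the same arm. It stood at 4986, 4818, 5010.3, 5219 and 4666 RPM in the bHR rats and at 4490.1, 4091, 4776, 4655 and 4583 RPM in the bLR rats. The highest bLR rat, replicate 3, lay above only bHR replicate 5. The means were 4940.0 ± 209 RPM (SD, n = 5) in bHR and 4519 ± 261 RPM in bLR, a log2 difference of 0.13 (SE 0.051, limma adjusted p = 0.26).

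Mt-nd1 encodes the subunit that helps to form the quinone-binding site of complex I, and Mt-nd2 and Mt-nd4 encode further proton-pumping subunits. The 95% interval of the difference held 0 in each of these 3 genes. Mt-nd1 was at 7049 ± 366 RPM (SD, n = 5) in bHR and 6760.2 ± 348 RPM in bLR (log2 difference 0.060, SE 0.054, limma adjusted p = 0.65). Mt-nd4 was at 3726 ± 168 RPM and 3557 ± 159 RPM (log2 difference 0.067, SE 0.046, limma adjusted p = 0.55). Mt-nd2 was at 8670.2 ± 342 RPM in bHR and 8862 ± 641 RPM in bLR, with a 95% interval of the log2 difference from -0.16 to 0.10. The sign of the Mt-nd2 difference was not the same under all scalings.

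Complex III hands electrons on to cytochrome c, and Mt-cyb encodes its cytochrome b, the subunit that carries the haem groups of the quinone cycle. The level of Mt-cyb was 10427.5, 11071, 10242, 10625 and 9748 RPM in the bHR rats and 9689.9, 8702, 10067, 9736 and 9388 RPM in the bLR rats. The lines overlapped only through bHR replicate 5 and bLR replicate 3. The means were 10423 ± 487 RPM (SD, n = 5) and 9516 ± 515 RPM, a log2 difference of 0.13 (SE 0.056, limma adjusted p = 0.29).

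Complex IV, cytochrome c oxidase, reduces oxygen to water. Mt-co2, whose product takes up electrons from cytochrome c, was at 6512, 6848, 6252, 6672 and 6016 RPM in the bHR rats and 6208, 5522, 5991, 6244 and 5878 RPM in the bLR rats. Again bHR replicate 5 was the only bHR rat inside the bLR range. The means were 6460.2 ± 331 RPM (SD, n = 5) and 5969 ± 292 RPM, a log2 difference of 0.11 (SE 0.052, limma adjusted p = 0.33). Mt-co1, which encodes the subunit where oxygen is reduced, was at 20095 ± 542 RPM in bHR and 20173 ± 1123 RPM in bLR, with a 95% interval of the log2 difference from -0.13 to 0.12.

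Mt-atp6, from which the proton channel subunit of ATP synthase is made, was at 10194 ± 323 RPM (SD, n = 5) in bHR and 10243 ± 413 RPM in bLR. The 95% interval of its log2 difference ran from -0.11 to 0.10. For Mt-co1 and Mt-atp6 the sign of the difference depended on the scaling and on which rat was left out, so neither is given a direction.

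**Figure D2:**
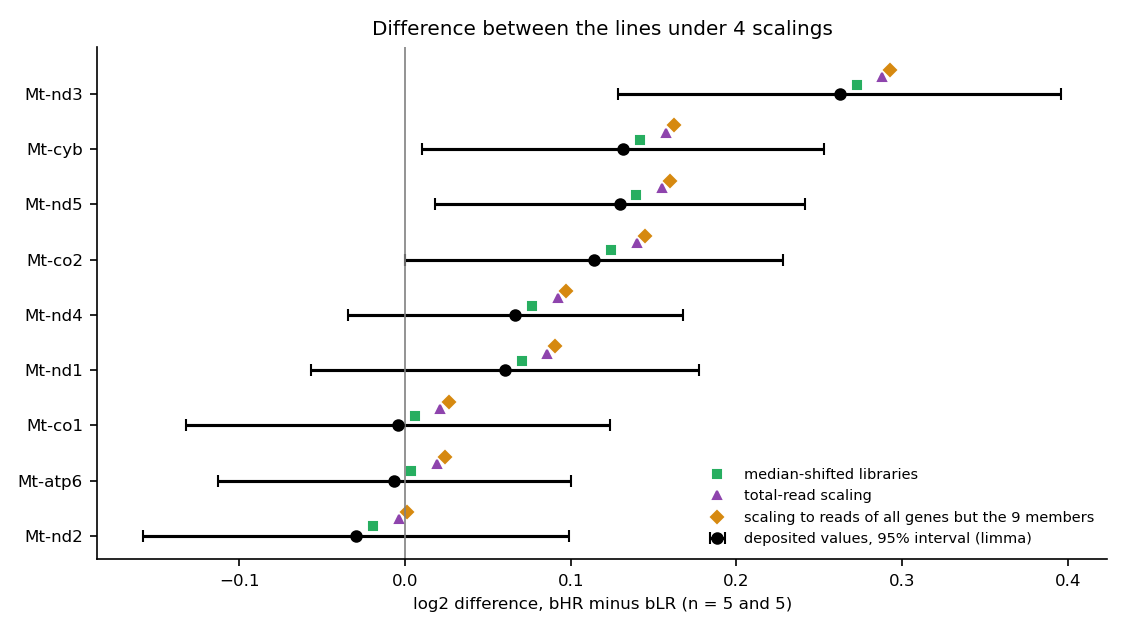
Log2 difference, bHR minus bLR, of each gene (n = 5 and 5) with the 95% interval of limma on the deposited values (circles), and the same difference under 3 other scalings. Mt-nd3 lies highest, from 0.26 on the deposited values to 0.29 with libraries scaled to the reads of the other genes. Each of the 3 applies a single constant per library, so by construction it shifts the 9 genes by about the same amount. Quantile normalization, which does not, is not drawn.

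Together the 9 genes took 6.24 to 7.56% of all recovered reads. The share was 7.31, 7.40, 7.18, 7.56 and 6.94% in bHR replicates 1 to 5 and 7.35, 6.60, 7.34, 7.26 and 6.24% in bLR replicates 1 to 5. The lines overlapped widely, since 3 bLR rats lay within the bHR range and the lowest 2 values were those of bLR replicates 2 and 5. The means were 7.28 ± 0.24% (SD, n = 5) in bHR and 6.96 ± 0.51% in bLR, and the difference between them of 0.32 percentage points was smaller than the SD of the bLR rats. The difference of means was 0.14 points without bLR replicate 5 and 0.20 points over the authors' effective library size, and the difference of medians was 0.055 percentage points. In bLR replicate 5 the most abundant other gene took 4.06% of the reads, against 0.568 to 0.722% in the other libraries, and with that gene left out of each total the difference of means was 0.27 points. In bulk tissue, fewer cells of a type and less RNA per cell cannot be told apart.

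**Figure D3:**
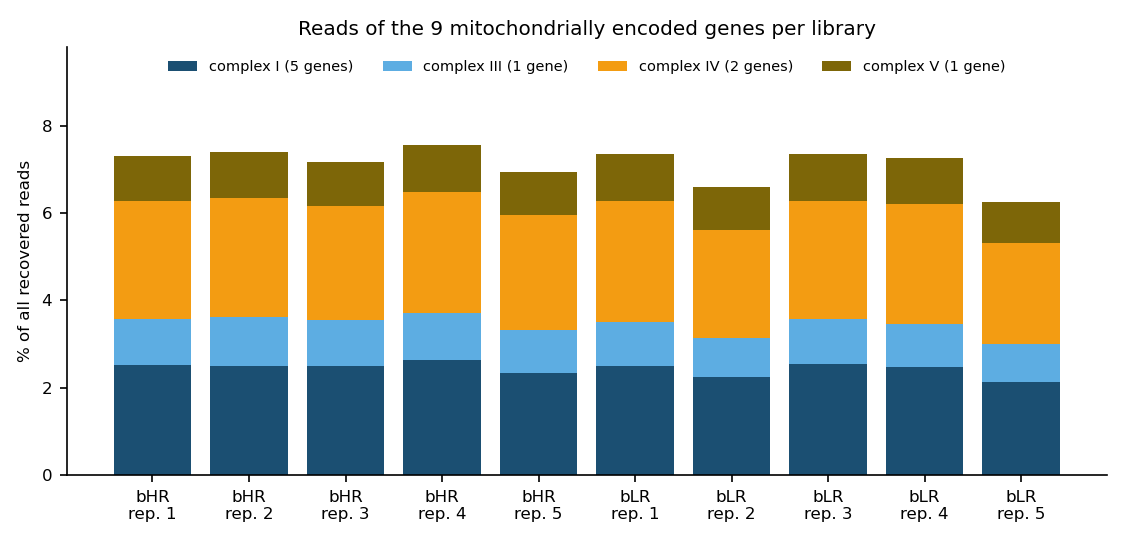
Share of all recovered reads (%, axis from 0) taken by the 9 genes in each library, split by respiratory complex. The bars run from 6.24% in bLR replicate 5 to 7.56% in bHR replicate 4, and in each the 5 genes of complex I and the 2 of complex IV take most of the share.

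The genes varied together between rats of the same line. After subtraction of the line means, all 9 genes lay below their line mean in bHR replicate 5 and in bLR replicate 2, by a mean of 0.10 log2 units in each. All 9 lay above it in bHR replicate 1, bHR replicate 4 and bLR replicate 3. In bLR replicate 5, 8 of the 9 were below. Over all 10 rats, bLR replicate 2 had the lowest value of 6 genes and bLR replicate 5 of the other 3.

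Pearson's r over the 10 libraries, with line means subtracted, was 0.50 to 0.94 over the 36 pairs of genes with a median of 0.77, and Spearman's rho was 0.30 to 0.94 with a median of 0.70. In permutation tests within lines, 32 pairs had a p under 0.05 for r and 31 after Benjamini-Hochberg adjustment over the 36 pairs. For rho, 22 pairs had a permutation p under 0.05 and 5 after adjustment. For each pair r was also taken without the 2 libraries farthest from the median of its first gene, before subtraction of line means. The median r was then 0.77 and the lowest 0.28 (Mt-nd5 with Mt-co1). Libraries outlying in the second gene only were not left out. By r the tightest pair was Mt-nd2 with Mt-atp6 (r = 0.94, rho = 0.92, permutation p = 0.00071 and 0.0016, adjusted 0.013 and 0.022). The loosest by r was Mt-nd4 with Mt-nd5 (r = 0.50, rho = 0.45, permutation p = 0.17 and 0.23, adjusted 0.17 and 0.25). By rho the tightest was Mt-nd3 with Mt-co2 (rho = 0.94, permutation p = 0.00026, adjusted 0.0094) and the loosest Mt-nd3 with Mt-nd5 (rho = 0.30, permutation p = 0.41, adjusted 0.41). Values of a library share its scaling, and with libraries scaled to their total reads the median r was 0.86.

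Among pairs of all 8575 genes with a mean log2 value of at least 4 the median r was 0.0084, and among the 76 genes with a mean of at least 10, which include 8 of these genes, it was 0.060. A single component held 79.4% of the within-line variance of the 9 genes. The spread itself was ordinary for abundant genes: the median SD within lines was 0.074 log2 units over the 9 genes and 0.069 over the 76. Mt-nd3 varied most, with an SD of 0.11, and Mt-atp6 least, with 0.053.

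**Figure D4:**
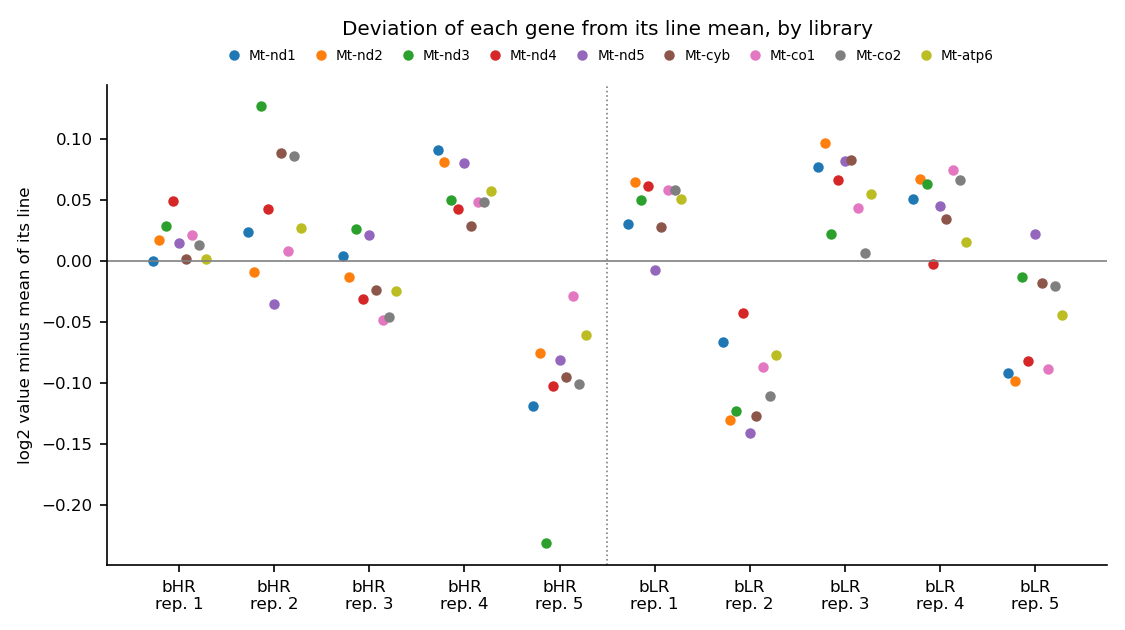
Deviation of each gene's log2 value from the mean of its line (y axis, log2 units) in each of the 10 libraries; each colour is a gene. In bHR replicate 5 and bLR replicate 2 all 9 points lie below 0, and Mt-nd3 in bHR replicate 5 is the lowest, at -0.23.

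Depth and score are given for the 3 libraries in which the genes were low. The total was 33839361 reads in bHR replicate 5, 41330403 in bLR replicate 2 and 29211331 in bLR replicate 5, of a range from 29106105 to 48663164. The social interaction score in the labels, which has no unit, was 24.0 in bHR replicate 5, 8.0 in bLR replicate 2 and 7.33 in bLR replicate 5. Among these 3 were the shallowest but 1 of the 10 libraries and the 2 rats with the lowest scores. In the shallowest library, bLR replicate 4 with 29106105 reads, 8 of the 9 genes lay above their line mean. The part of depth in the shared variation was not tested.

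Other genes with the same profile were sought by Pearson's r with the mean of the 9 genes, over 10 libraries with line means subtracted, as a description. Of 8566 other genes with a mean log2 value of at least 4, 60 (0.70%) had an r of 0.8 or more and 41 (0.48%) of -0.8 or less. These other genes are all those not among the 9. Further genes of the mitochondrial genome, such as Mt-co3 and Mt-atp8, could not be recognized and may be among them. The most alike were ENSRNOG00000033299, with r = 0.97, and ENSRNOG00000030700, with r = 0.95. ENSRNOG00000033299 was at 986 ± 36.7 RPM (SD, n = 5) in bHR and 973 ± 63.0 RPM in bLR, and ENSRNOG00000030700 at 5740.4 ± 182 and 5709.8 ± 308 RPM. The most opposite were ENSRNOG00000055010 (r = -0.92), at 17.5 ± 1.25 RPM in bHR and 17.8 ± 1.09 RPM in bLR, and ENSRNOG00000006001 (r = -0.90), at 87.1 ± 2.54 and 89.8 ± 6.71 RPM. None of the 4 passed the test between the lines (limma with Benjamini-Hochberg adjustment, lowest adjusted p = 0.75), and no table used here pairs these identifiers with names.

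The proportions of the 9 genes to one another were then compared. Each gene's part of the summed reads of the 9 genes does not depend on the scaling of a library. In 5 of the 9 genes this part did not overlap between the lines, against 2.94% of all 16643 genes when each was set over the same sum, and 6.58% of the 76 abundant ones. Mt-nd3, Mt-cyb and Mt-co2 held a larger part in bHR, and Mt-nd2 and Mt-atp6 a smaller part. The 76 include 8 of the 9 genes, among them Mt-cyb, Mt-co2, Mt-nd2 and Mt-atp6. These make up most of the 5 genes behind the 6.58%, so that share is hardly a background of other genes. The 9 genes varied together (median r of 0.77), so division by their own sum removes variation that they share. Over other genes the median r with the mean of the 9 was 0.033, so these percentages are not like for like. These proportions were examined after the levels had been seen, parts of a whole are not independent of each other, and no test was made of them.

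Mt-cyb held 14.4, 15.1, 14.5, 14.2 and 14.3% of the summed reads in the bHR rats and 13.5, 13.4, 13.8, 13.5 and 14.04% in the bLR rats. Mt-atp6 held 14.1, 14.2, 14.2, 14.2 and 14.3% in the bHR rats and 14.7, 14.9, 14.6, 14.3 and 14.8% in the bLR rats. The gap between the lines was narrow for Mt-atp6, where the highest bHR rat was at 14.31% and the lowest bLR rat, replicate 4, at 14.33%. Mt-nd2 held 12.1, 11.8, 12.2, 12.3 and 12.05% in the bHR rats and 12.8, 12.4, 13.0, 12.8 and 12.4% in the bLR rats. Mt-co2 held 8.995, 9.36, 8.87, 8.94 and 8.81% against 8.62, 8.48, 8.24, 8.65 and 8.79%. For Mt-co2 too the lines nearly met, in bHR replicate 5 and bLR replicate 5. Mt-nd3 held 0.313, 0.331, 0.321, 0.308 and 0.277% in bHR and 0.266, 0.261, 0.259, 0.268 and 0.274% in bLR, again with bHR replicate 5 next to the bLR rats.

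The other 4 genes overlapped in their part of the summed reads. Mt-nd5 held 6.88 ± 0.20% (SD, n = 5) in bHR and 6.48 ± 0.25% in bLR, and Mt-co1 28.0 ± 0.53% and 28.9 ± 0.44%. Mt-nd1 held 9.82 ± 0.23% and 9.69 ± 0.17%, and Mt-nd4 5.19 ± 0.094% and 5.10 ± 0.14%. Summed by complex, the parts of complexes I and IV overlapped between lines, at 34.3 ± 0.54% and 34.2 ± 0.30% for the 5 genes of complex I and 37.0 ± 0.46% and 37.5 ± 0.50% for the 2 genes of complex IV. Within complex I the genes thus went different ways, with a larger part for Mt-nd3 and a smaller one for Mt-nd2 in bHR.

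**Figure D5:**
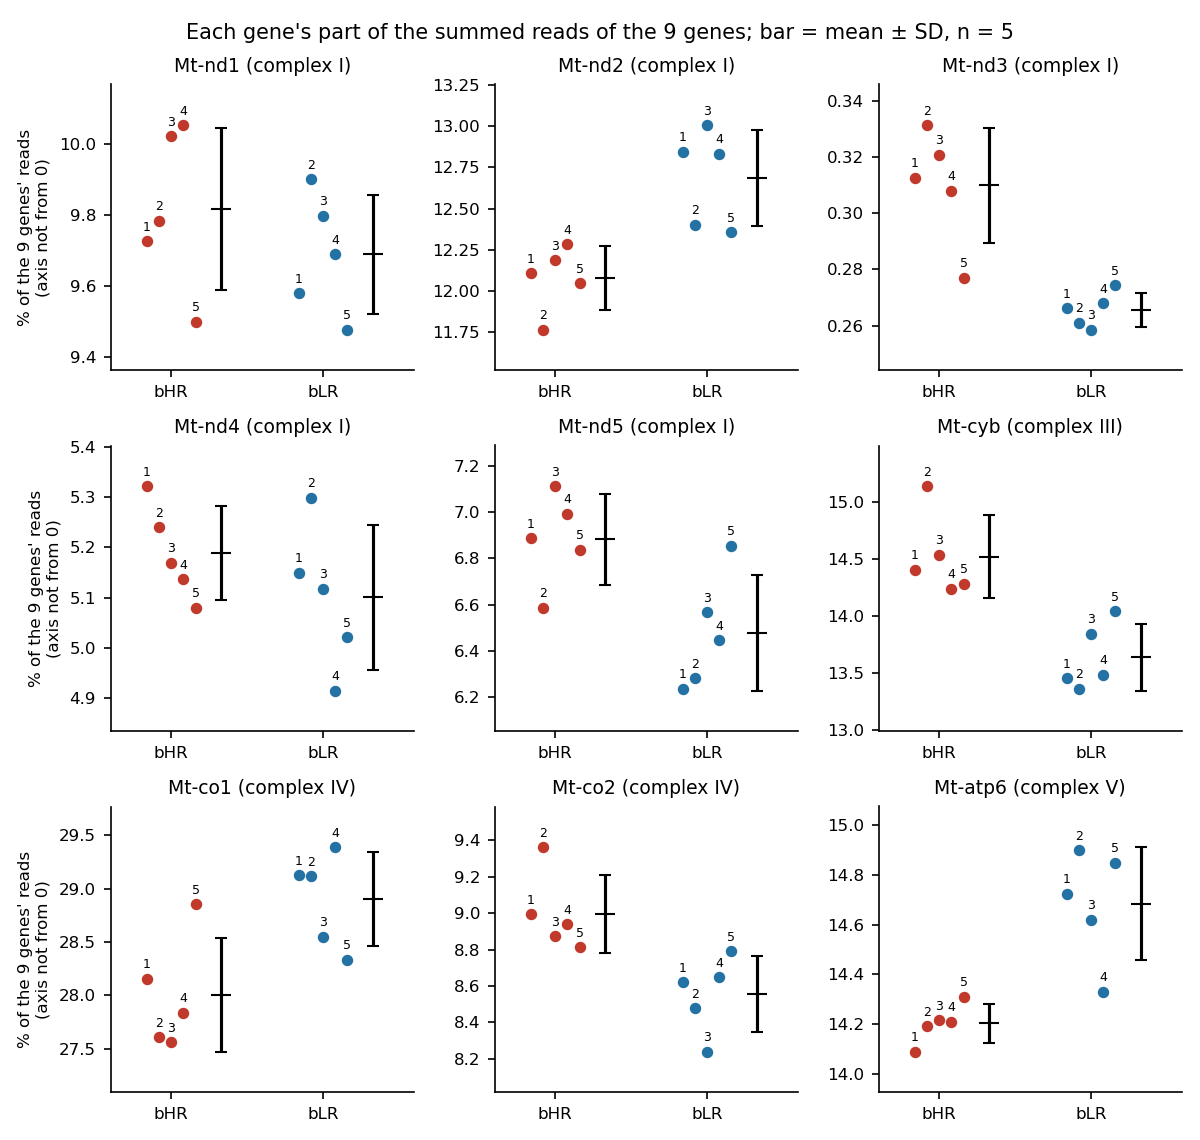
Each gene's part (%, linear axis, not from 0) of the summed reads of the 9 genes in the 5 bHR and 5 bLR rats; points are rats, numbered by replicate, and bars are the mean ± SD. Mt-nd3, Mt-cyb and Mt-co2 lie higher and Mt-nd2 and Mt-atp6 lower in bHR without overlap, with Mt-atp6 and Mt-co2 nearly touching.

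The genes were also set against each other as ratios, which come from the same reads as the parts and add no independent result. A ratio of Mt-nd3, Mt-cyb or Mt-co2 to Mt-nd2 or Mt-atp6 had to separate the lines, since their parts did so in opposite directions. Of the 36 ratios between 2 of the genes, 10 did not overlap between the lines (27.8%), against 4.23% of the 138486403 ratios between any 2 genes of the table. Among the 8 genes with a mean log2 value of at least 10 it was 6 of 28 ratios (21.4%), against 6.18% of the 2850 ratios between abundant genes. The ratios share genes, so these shares are a description. They are also not like for like, since a ratio of 2 genes that vary together loses their shared variation. The median r was 0.77 over pairs of the 9 genes and 0.060 over pairs of abundant genes. In 8 of the 10 the denominator with the lower bHR part was Mt-nd2 or Mt-atp6, 4 each, and Mt-nd3 was the numerator in 4. Without bHR replicate 5 there were 21 such ratios and without bLR replicate 5 there were 17, while leaving out any other rat gave 10 to 13. Leaving out a rat cannot make separated lines overlap, so the count could not fall below 10 and is no check of it.

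The ratio with the widest gap between the lines was that of Mt-cyb to Mt-atp6 reads. It was 1.02, 1.07, 1.02, 1.002 and 0.998 in bHR replicates 1 to 5 and 0.914, 0.897, 0.947, 0.941 and 0.946 in bLR replicates 1 to 5. The lowest bHR rat thus lay above the highest bLR rat, and the means were 1.02 ± 0.027 (SD, n = 5) and 0.929 ± 0.022. Mt-nd5 to Mt-nd2 reads stood at 0.570 ± 0.0086 in bHR and 0.511 ± 0.026 in bLR, with bLR replicate 5 at 0.555 and the other bLR rats at 0.506 or less. Ratios of read counts depend on gene length and mapping, so they do not give the numbers of messengers per cell.

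The last comparison asked whether the genes followed the social interaction score within lines, a score of 16.67 to 28.33 in the bHR rats and 7.33 to 24 in the bLR rats. With line and score together in limma, 0 of the 9 genes passed, as did 0% of all genes, and 0 of the 9 had an unadjusted p under 0.05, against 7.11% of all genes. The slopes lay between 0.0016 and 0.0083 log2 units per point of the score, and the smallest limma adjusted p was 0.76. With the replicate number as a block 7 of the 9 slopes were below 0. There were 2 without bLR replicate 2 (score 8.0) and 1 without bLR replicate 4 (score 24). The median slope was 0.0040, and 0.0020 without bLR replicate 2.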

How the data were processed

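Polyadenylated RNA of the whole hippocampus was sequenced as single reads of 50 bases. Per the labels' protocols, Subread placed the reads on Rnor_6.0, featureCounts assigned them to genes of Ensembl release 85, and a gene was kept if 5 or more samples had 16 or more counts. The deposited values are log2 RPM as limma voom gives them, made by the authors with R 3.2.2, a version taken from the submitters' processing notes. No per-sample column was left unused (0).

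Whole reads were recovered with a single constant per library, with which 100.0% of the values were whole to within 0.01 reads. Shares and proportions use these reads. The lines were compared on the deposited values with limma 3.58.1 in R 4.3.3, with line as the single term and an intensity trend. P-values were adjusted by Benjamini-Hochberg over the 16643 genes, with a threshold of 0.05, in a script tested on simulated data. Correlations used 100000 permutations within lines (scipy 1.17.1). Figures were made with matplotlib 3.10.9.

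The 9 genes and all lists were chosen with earlier results of these data known. The rule for named genes took all 9 and the 2 most and 2 least alike identifiers with a mean log2 value of at least 4. Lists of nuclear-encoded subunits and cell type markers needed symbols, and 0 of 16643 identifiers matched the RefSeq gene table, so they were not analysed here. The sequences of the 9 genes were not used here.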

Additional observations from a re-analysis of the deposited data

Results flagged for a closer look

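A rat far from the others of its line was looked for in 58 groups of 5 values: the RPM of each gene, its part of the summed reads of the 9 genes, the summed share, and the 10 ratios that separated the lines. There were 2 such values, both in bHR replicate 2. By chance about 1 in 20 groups holds such a value. The ratio of Mt-cyb to Mt-nd2 reads was 1.29 in bHR replicate 2, with the nearest bHR rat at 1.19 and the lowest at 1.16. The ratio of Mt-co2 to Mt-nd2 reads was 0.796 in bHR replicate 2, with the nearest bHR rat at 0.743 and the lowest at 0.728. The 2 ratios share their denominator and the library, so they are not independent. Both values lie on the side away from the bLR rats, so neither decides whether the lines overlap. Without bHR replicate 2 the number of ratios that did not overlap was 10, as with it. Leaving out a rat cannot lower that number.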

How the results depend on the processing

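Of 21 refits and a looser threshold, 19 kept the count of changed genes among the 9 at 0; it was 1 with library weights, at an adjusted p under 0.10 and without bHR replicate 5 (range 0 to 1 leaving out a rat), each time Mt-nd3. limma with voom weights, without the trend and with the replicate block gave 0. Over all genes the 230 changed (102 higher, 128 lower in bHR) became 152 without the trend, 108 with the replicate block, 46 with the score as covariate, 503 at an adjusted p under 0.10 and 108 to 216 leaving out a rat. Total-read scaling gave 112 higher and 82 lower, and scaling to the reads of the other genes 122 and 83. The median log2 difference of the 9 genes was 0.067 and 0.185 with quantile normalization, and the cause was not tested; leaving out a rat gave 0.046 to 0.092. Differences near 0 changed sign: Mt-nd2 was 0.11 with quantile normalization and 0.0012 scaled to the other genes' reads. Mt-co1 was 0.0060, 0.198, 0.021 and 0.026 and Mt-atp6 0.0036, 0.066, 0.019 and 0.024 with median-shifted libraries, quantile normalization, total reads and the other genes' reads. Leaving out a rat gave -0.026 to 0.014 for Mt-co1 and -0.026 to 0.0087 for Mt-atp6. Leaving out a rat gave 10 to 21 separated ratios and 5 to 6 separated parts, settings chosen after seeing the data. Neither count could fall, since leaving out a rat cannot make separated lines overlap. The difference in summed share was 0.14 to 0.42 percentage points leaving out a rat. None of the 9 genes passed for the score in the 13 other settings, but the median slope of 0.0040 was -0.0018 with the replicate block. The median correlation was 0.75 to 0.83 leaving out a rat. No label says that rats with the same replicate number are pairs. Their deviations correlated at -0.13 to 0.21, and the number matched the best partner for 1 of 5 bHR rats. So few values cannot show whether the numbers pair the rats. edgeR and DESeq2 were not run, since the deposited unit is log2. Lengths, and so levels per length, were not analysed here.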
